A study of Homo sapiens with 8 samples.

Results

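The genes described here encode proteins of the lysosomal membrane, the receptors that sort enzymes to the lysosome, and the proton pump that acidifies it. A list of 46 genes was fixed by name: 17 for the vacuolar ATPase (V-ATPase; 16 genes whose names start with ATP6, and TCIRG1) and 29 for lysosomal membrane and sorting proteins, out of 22627 gene symbols in the deposited tables. RNA came from NB4, a human acute promyelocytic leukaemia line that matures towards granulocytes in all-trans retinoic acid (ATRA). The cells carried, by lentivirus, either a scrambled short hairpin RNA (shScr) or a hairpin against TFEB (shTFEB), and were kept for 72 h in ethanol vehicle or in 1 µM ATRA. Each of the 4 combinations of hairpin and treatment has 2 samples in the labels (8 in all), and every group is thus a lentivirally transduced derivative of the same line. The labels do not say whether the transduced cells were clones, and the wild-type NB4 cells that the design also names were not analysed here.

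Each deposited table gives 1 value per transcript model for a whole group, in FPKM (fragments per length of model and per mapped fragment), and the values of a gene's models were added. The spread between the samples of a group could not be computed, so no test was run, and every difference below compares 1 value per group without a replicate check. Read from the steps between the lowest values, relative depth ran from 0.912 (shTFEB cells in ATRA) to 1.17 (shTFEB cells in vehicle) with the shScr vehicle group set to 1. Comparisons used the 11052 genes whose 4 values averaged 1 FPKM or more, which include 44 of the 46 members. Below, "rose" and "fell" are used for a log2 ratio of 1 or more in size (the 2-fold mark), with 1 FPKM first added to each value. A fold is the plain ratio of FPKM values with nothing added, so for low genes it is larger than the log2 ratio beside it. Where 4 values follow each other without labels, the first pair is vehicle and ATRA with the scrambled hairpin and the second pair is vehicle and ATRA with the TFEB hairpin. TFEB itself was at 1.20 (shScr) and 1.35 FPKM (shTFEB) with vehicle and at 19.4 (shScr) and 8.44 FPKM (shTFEB) with ATRA, so the hairpin's target was lower under ATRA and not under vehicle. Of its family, TFE3 stood at 7.16, 19.9, 7.88 and 16.0 FPKM, and MITF and TFEC stayed at or under 0.356 FPKM. The part of these factors in the values of the members was not tested. Among promyelocyte markers MPO stood at 3871 FPKM and PRTN3 at 379 FPKM in shScr vehicle, whereas ELANE was listed at 0. The 7 markers of this list summed to 4360, 1049, 2853 and 899.9 FPKM, and 4 of the 6 compared fell with ATRA in each line while 1 rose; their part in the ATRA ratios of the members was not tested. The erythroid gene HBB and the B-cell gene MS4A1 were listed at 0 in every group.

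Lysosomes are bounded by a membrane whose inner face is coated by heavily glycosylated proteins such as LAMP1 and LAMP2, and the membrane holds channels, transporters and exporters for the products of digestion. The V-ATPase pumps protons into the lumen: its cytosolic V1 sector hydrolyses ATP and its membrane-embedded V0 sector carries the protons, with the a subunit, which exists in several paralogous forms, steering the complex to different organelles. In myeloid cells lysosomes are the kin of the granules that neutrophils store and of the phagosome that macrophages acidify. TFEB is a transcription factor that binds an extended E-box, the CLEAR element, in the promoters of many lysosomal and V-ATPase genes.

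Promoter windows from RefSeq (GRCh38.p14, 250 bases before to 50 after each listed start) were searched for 3 nested forms of that element: the E-box CACGTG, TCACGTGA, and a full form that adds a G before and a C after the latter. Each is its own reverse complement, so a match counts on both strands, and every longer match contains the shorter ones. Windows were found for 39 of the 46 members, 12 of them V-ATPase genes. There was none for LAMP2, LAMP3, ATP6V0E1, ATP6V1A, ATP6V1B2, ATP6V1C1 and ATP6V1H. CACGTG was present in 13 of 39 members (33.3%) against 8.77% of all 27305 genes with a window, TCACGTGA in 9 members (23.1%) against 1.18%, and the full form in 4 members (10.3%) against 0.421%. The 27305 include genes too low to compare here. Among compared genes with a window, 1132 held CACGTG and 7589 did not. For TCACGTGA these counts were 206 and 8515, and for the full form 83 and 8638. These background shares are higher than those over all 27305 genes. Lysosomal genes are the class in which the element was described, so these shares are not independent of the choice of members, and a match is a description and not a shown binding site. The stretches just upstream of 6 starts are shown as examples, with the matches in capitals. CLCN6, SLC36A1 and CLN3 also held TCACGTGA and are not shown. The stretches of TCIRG1 and CD68, a pair of members that rose strongly, are shown because they hold none.

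MCOLN1: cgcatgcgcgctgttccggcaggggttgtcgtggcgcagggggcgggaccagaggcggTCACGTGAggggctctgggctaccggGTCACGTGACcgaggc
IGF2R: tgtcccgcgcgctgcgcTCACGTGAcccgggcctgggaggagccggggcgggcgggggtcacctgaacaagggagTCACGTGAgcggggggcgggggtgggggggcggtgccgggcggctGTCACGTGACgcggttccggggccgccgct
GNPTG: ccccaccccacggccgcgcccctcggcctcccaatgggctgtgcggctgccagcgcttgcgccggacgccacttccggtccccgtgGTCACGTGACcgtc
ATP6V1G1: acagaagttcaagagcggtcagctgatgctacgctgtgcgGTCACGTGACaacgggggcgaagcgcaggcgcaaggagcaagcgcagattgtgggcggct
LAMP1: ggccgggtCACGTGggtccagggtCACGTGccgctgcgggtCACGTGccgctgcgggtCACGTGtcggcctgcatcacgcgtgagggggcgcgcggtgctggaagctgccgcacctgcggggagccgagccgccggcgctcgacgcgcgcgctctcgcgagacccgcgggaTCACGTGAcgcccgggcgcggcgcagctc
ATP6V0D1: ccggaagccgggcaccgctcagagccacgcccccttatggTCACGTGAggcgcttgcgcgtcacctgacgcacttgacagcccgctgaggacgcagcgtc
TCIRG1: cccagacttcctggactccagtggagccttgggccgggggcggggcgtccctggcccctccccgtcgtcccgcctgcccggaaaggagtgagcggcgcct
CD68: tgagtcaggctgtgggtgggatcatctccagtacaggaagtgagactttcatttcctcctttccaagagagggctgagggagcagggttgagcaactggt

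All are written 5′ to 3′ on the strand of the gene and end at the base before the RefSeq start. In GRCh38.p14 they are chr19:7522524-7522623 (MCOLN1, plus strand), chr6:159968932-159969081 (IGF2R, plus), chr16:1351831-1351930 (GNPTG, plus), chr9:114587669-114587768 (ATP6V1G1, plus), chr13:113297039-113297238 (LAMP1, plus), chr16:67481158-67481257 (ATP6V0D1, minus), chr11:68038925-68039024 (TCIRG1, plus, the first of its listed starts) and chr17:7579538-7579637 (CD68, plus). The full form appears in MCOLN1, IGF2R, GNPTG and ATP6V1G1. IGF2R holds 3 copies of TCACGTGA, LAMP1 holds 6 copies of CACGTG in its window, of which the last crosses the start and is not shown, and GNPTG holds a second copy past the start.

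With the scrambled hairpin, ATRA raised 12 of the 44 compared members and lowered 2, where 12.5% of all compared genes rose and 15.2% fell. The median log2 ratio was 0.49 over the 27 compared membrane and sorting genes and 0.57 over the 17 V-ATPase genes, against −0.15 over all genes. Membrane and sorting genes rose in 8 cases and fell in 2, and V-ATPase genes rose in 4 cases and fell in none. With the TFEB hairpin 11 members rose and 2 fell, where 11.5% of all genes rose and 10.5% fell, and the medians were 0.39 and 0.56 against −0.13. Each of these changes had deposited bounds that did not overlap between vehicle and ATRA; with that condition added, 12.1% of all genes rose and 14.5% fell in shScr cells, and 11.1% rose and 9.91% fell in shTFEB cells. In RNA from whole cultures, fewer cells of a type and less RNA per cell cannot be told apart. Median-of-ratios rescaling, which moves the all-gene median from −0.15 to 0.00 in shScr cells, turns the all-gene split from 1384 higher and 1676 lower to 1612 and 1256 in shScr cells, and from 1270 and 1159 to 1440 and 884 in shTFEB cells. The same rescaling puts 17 members past the mark upward and 2 downward in shScr cells, and 14 upward and 2 downward in shTFEB cells. The bounds are sums of the authors' interval limits and were used as deposited, since in 11 to 15 of the 46 members per group the FPKM itself lay outside them.

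**Figure D1:**
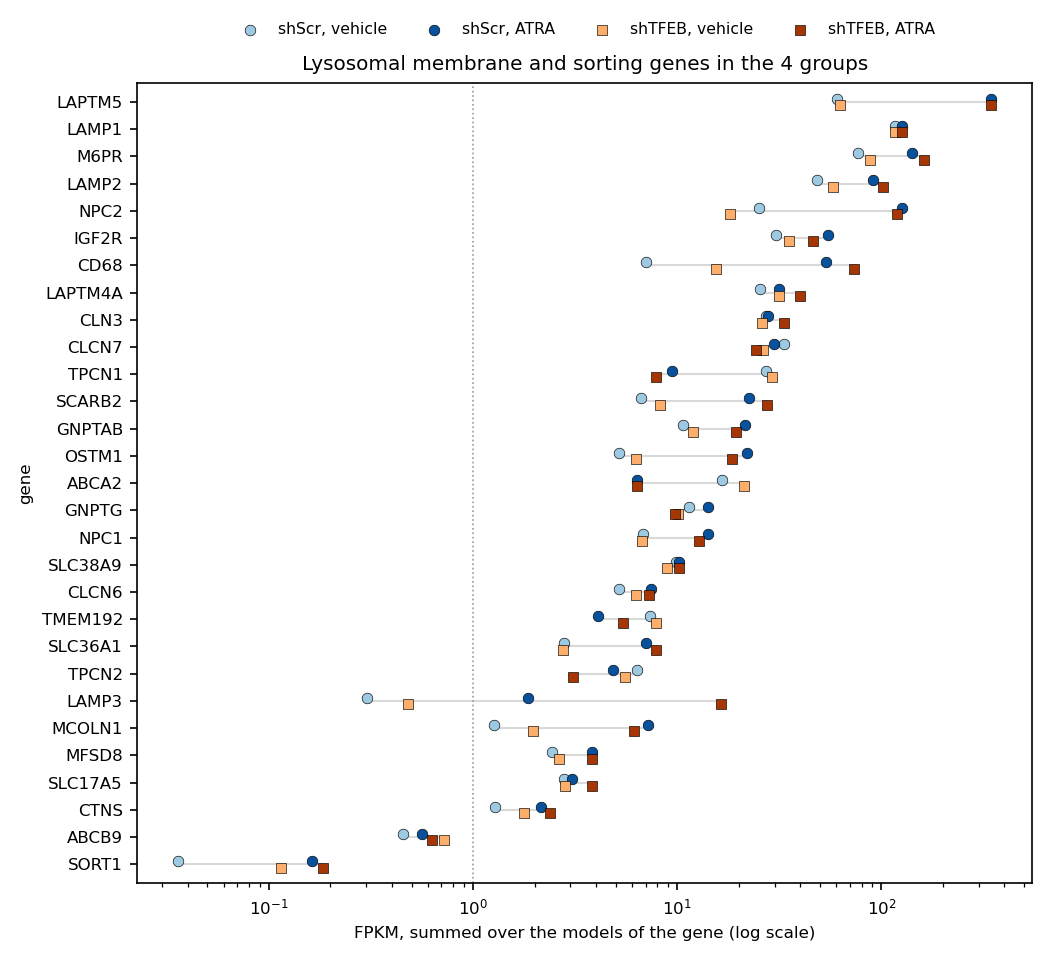
FPKM of the 29 lysosomal membrane and sorting genes on a log axis, 1 deposited value per group (circles, shScr; squares, shTFEB; pale, vehicle; dark, ATRA), ordered by mean; no error is drawn because none between samples could be computed, and the dotted line marks 1 FPKM. LAPTM5 reaches 344 and 345 FPKM under ATRA, TPCN1 and ABCA2 are lower under ATRA in both lines, and for LAMP3 the shTFEB ATRA value stands apart.

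Of the 5 structural glycoproteins, 3 rose in each line (SCARB2, CD68 and LAMP3), and the major pair LAMP1 and LAMP2 did not pass the mark. LAMP1 (hg19 chromosome 13, 113951469 to 113977741), the most abundant coat protein of the lysosome, stood at 117 FPKM with vehicle and 127 with ATRA under the scrambled hairpin, and at 116 with vehicle and 127 with ATRA under the TFEB hairpin. Its vehicle and ATRA values lie within 1.09-fold of each other in each line, and neither ATRA nor the hairpin moved it past the mark. LAMP2 (chromosome X, 119560003 to 119603204), its partner and the membrane receptor of chaperone-mediated autophagy, had 48.4, 90.7, 57.7 and 102 FPKM in the 4 groups. Both ATRA values of LAMP2 were above both vehicle values, at log2 ratios of 0.89 and 0.81 that stay under the mark. LAMP2 has 3 models. The B form held 90.3%, 90.0%, 92.1% and 91.8% of its FPKM in these groups, the A form, the one used in chaperone-mediated autophagy, held 7.9% to 10.0%, and the C form was listed at 0. The split between the forms therefore moved by no more than a few points while the sum moved, although models that share exons are separated only by estimation.

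SCARB2 (chromosome 4, 77079892 to 77135052), which carries the enzyme glucocerebrosidase to the lysosome, went from 6.67 to 22.5 FPKM under the scrambled and from 8.25 to 27.4 under the TFEB hairpin, the same log2 ratio of 1.62 in each. CD68 (chromosome 17, 7482805 to 7485429), a LAMP-like glycoprotein of phagocytes, stood at 6.996 FPKM (deposited bounds 6.20 to 7.80) with vehicle and 53.6 (51.5 to 56.4) with ATRA under the scrambled hairpin, and at 15.5 (14.4 to 16.7) with vehicle and 73.8 (71.4 to 77.4) with ATRA under the TFEB hairpin. The bounds of the 4 groups do not overlap one another. The rise was 7.66-fold with the scrambled and 4.75-fold with the TFEB hairpin, from a vehicle level that was 2.22-fold higher in the group labelled shTFEB. TFEB was low in both vehicle groups (1.20 FPKM in shScr, 1.35 in shTFEB), and its part in the CD68 values was not tested. CD68 is widely used as a macrophage marker, and 12 other monocyte and macrophage markers were read beside it. Their summed level was 1.91 and 1.82 FPKM in the vehicle groups and 94.5 and 113 FPKM under ATRA, and MRC1, CD14 and C1QA stayed at or under 1.09 FPKM in every group. Of the 5 markers that could be compared, 4 rose with ATRA in shScr and 5 in shTFEB cells, and their part in the CD68 values was not tested. SIGLEC1, 1 of the 5, passed the filter only through the shTFEB ATRA group (21.8 FPKM). Between the vehicle groups none of these 5 passed the mark, whereas 4 of 9 compared eosinophil and basophil markers did, all higher in the group labelled shTFEB: EPX at 82.8 against 5.78 FPKM and HDC at 96.1 against 10.4 FPKM led them. RNASE3 (7.83 in shTFEB against 16.2 FPKM in shScr) and RNASE2 (109 against 153 FPKM) went the other way, at log2 ratios of −0.96 and −0.48 that stay under the mark. The 12 markers of that list summed to 1282, 183, 1850 and 1291 FPKM, and their part in the CD68 difference was not tested.

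LAMP3 gave the largest difference between the hairpins of any member. This gene (chromosome 3, 182840003 to 182880667), also called DC-LAMP for its presence in mature dendritic cells and known as an interferon-inducible gene, stood at 0.302 FPKM with vehicle and 1.87 with ATRA under the scrambled hairpin, and at 0.481 with vehicle and 16.35 with ATRA under the TFEB hairpin. The shTFEB ATRA group is thus the only high one, and its FPKM lies just above its own deposited bounds (14.9 to 16.26 FPKM), which do not reach those of shScr ATRA (1.62 to 2.06). LAMP3 passed the filter of a mean of 1 FPKM only through this group, so its place among the compared members is not independent of the difference. Under ATRA the FPKM of LAMP3 was 8.75-fold higher in shTFEB than in shScr cells, a log2 ratio of 3.13 as it stands and of 2.60 with 1 FPKM added. Its log2 response to ATRA was 3.55 in shTFEB and 1.14 in shScr cells with 1 FPKM added, and 5.09 and 2.63 without. Interferon-stimulated genes moved the same way: of 16 compared genes in a list of 17 that was added after the values were seen, all 16 were higher in shTFEB cells under ATRA, with a median log2 ratio of 2.91, and none passed the mark under vehicle. Of the 16, IFI44, IFI44L, MX1 and XAF1 passed the filter only through the shTFEB ATRA group. IFI27, the gene not compared, was at 0 in that group. The count of 16 is thus partly set by the filter. The summed level of the 17 genes was 48.3, 593, 49.6 and 3827 FPKM. Their part in the LAMP3 value was not tested.

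Of 3 further membrane proteins LAPTM5 alone rose, in both lines. LAPTM5 (chromosome 1, 31205315 to 31230683), a leukocyte protein that brings immune receptors to the lysosome for breakdown, had the highest mean of the members over the 4 groups and the highest level under ATRA, though not under vehicle, at 60.8 FPKM with vehicle and 344 with ATRA under the scrambled hairpin, and at 62.4 with vehicle and 345 with ATRA under the TFEB hairpin. It rose 5.65-fold and 5.53-fold, and the lines differed by 1.03-fold or less at either treatment. LAPTM4A, its broadly expressed relative, ranged from 25.3 to 40.0 FPKM with log2 ratios of 0.30 and 0.33 to ATRA. TMEM192 (chromosome 4, 165997230 to 166034024), a common tag for lysosome purification, was lower under ATRA at 4.08 against 7.34 FPKM in shScr and 5.44 against 7.89 FPKM in shTFEB cells, log2 ratios of −0.71 and −0.46 that do not reach the mark.

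Cholesterol leaves the lysosome by transfer from the luminal protein NPC2 to the membrane protein NPC1. NPC2 (chromosome 14, 74946643 to 74960084) went from 25.0 to 126 FPKM under the scrambled and from 18.2 to 120 under the TFEB hairpin, a 5.05-fold and a 6.58-fold rise. NPC1 (chromosome 18, 21111463 to 21166581) went from 6.78 to 14.1 FPKM and from 6.72 to 12.7 FPKM, at log2 ratios of 0.95 and 0.83. The luminal partner therefore gained more than the membrane partner: per length, NPC2 was 3.69 times NPC1 in shScr vehicle and 8.97 times in shScr ATRA, and 2.71 and 9.42 times in the shTFEB groups.

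Ion channels and chloride transporters held members that rose and a member that fell. MCOLN1 (chromosome 19, 7587496 to 7598895), the calcium channel TRPML1 whose calcium release is known to activate TFEB, stood at 1.27 FPKM (bounds 1.004 to 1.46) with vehicle and 7.21 (6.19 to 7.26) with ATRA under the scrambled hairpin, and at 1.96 (1.61 to 2.10) with vehicle and 6.11 (5.203 to 6.35) with ATRA under the TFEB hairpin. The ATRA groups lie above the vehicle groups in both lines, and the bounds of the ATRA groups overlap each other. Its log2 ratios were 1.85 and 1.26. TPCN1 (chromosome 12, 113659260 to 113736389), a sodium and calcium channel of endosomes and lysosomes, fell from 27.3 to 9.42 FPKM under the scrambled and from 29.1 to 7.89 under the TFEB hairpin, log2 ratios of −1.44 and −1.76. Its relative TPCN2 was lower too but under the mark, at 6.38, 4.86, 5.52 and 3.10 FPKM.

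CLCN7 and OSTM1 encode an obligate pair, a chloride-proton exchanger and the subunit that stabilises it. OSTM1 (chromosome 6, 108362613 to 108395941) rose from 5.21 to 22.0 FPKM under the scrambled and from 6.297 to 18.6 under the TFEB hairpin. CLCN7 (chromosome 16, 1494934 to 1525085) stood at 33.2, 29.9, 26.4 and 24.2 FPKM, with log2 ratios to ATRA of −0.15 and −0.12 that become 0.03 and 0.02 after median-of-ratios rescaling. The level of CLCN7 was 6.37 times that of OSTM1 in shScr vehicle and 1.36 times in shScr ATRA, and 4.19 and 1.30 times in the shTFEB groups, so the pair came closer in level under ATRA in both lines. CLCN6, a related exchanger of late endosomes, ranged from 5.16 to 7.43 FPKM and did not pass the mark.

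Of the 8 metabolite transporters, 1 rose and 1 fell in each line. SLC36A1 (chromosome 5, 150827163 to 150871940), a proton-coupled exporter of small amino acids, went from 2.78 to 7.03 FPKM and from 2.76 to 7.91 FPKM, log2 ratios of 1.09 and 1.24. ABCA2 (chromosome 9, 139901686 to 139923374), a lipid transporter of late endosomes and lysosomes, fell from 16.5 to 6.32 FPKM under the scrambled and from 21.3 to 6.36 under the TFEB hairpin. Both of its models were lower under ATRA, and the more abundant one went from 51.5% to 59.6% of the gene's FPKM in shScr and from 52.6% to 60.3% in shTFEB cells. SLC38A9, the arginine sensor that reports to mTORC1, was nearly level at 9.89, 10.2, 8.87 and 10.2 FPKM. CLN3 (27.3, 27.9, 25.98 and 33.2 FPKM) and the sialic acid exporter gene SLC17A5 (2.78, 3.06, 2.84 and 3.83 FPKM) had log2 ratios to ATRA of 0.03 and 0.10 in shScr and 0.34 and 0.33 in shTFEB cells, with bounds apart in shTFEB cells alone. For CLN3 1 of 2 models went from 45.3% to 62.5% of the FPKM in shScr and from 54.7% to 61.2% in shTFEB cells. The cystine exporter gene CTNS (1.28 to 2.39 FPKM) and MFSD8 (2.44 to 3.83 FPKM) did not pass the mark. ABCB9, a peptide transporter, stayed between 0.456 and 0.724 FPKM and was not compared.

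Hydrolases reach the lysosome after the phosphotransferase encoded by GNPTAB and GNPTG marks them with mannose 6-phosphate, which M6PR and IGF2R recognise. None of these 4 genes passed the mark in either line, and their median log2 ratio was 0.84 in shScr and 0.53 in shTFEB cells. M6PR (chromosome 12, 9092957 to 9102357) stood at 76.7 FPKM with vehicle and 141 with ATRA under the scrambled hairpin, and at 87.9 with vehicle and 161 with ATRA under the TFEB hairpin, a ratio of 1.83-fold in both lines. IGF2R (chromosome 6, 160390131 to 160527583) stood at 30.6, 54.9, 35.2 and 46.3 FPKM, and GNPTAB at 10.7, 21.5, 11.9 and 19.5 FPKM, with both ATRA values above both vehicle values for each gene. GNPTG (chromosome 16, 1401900 to 1413352) differed from these: it stood at 11.4 FPKM with vehicle and 14.1 with ATRA under the scrambled hairpin, and at 10.1 with vehicle and 9.69 with ATRA under the TFEB hairpin. SORT1, a sorting receptor that does not need mannose 6-phosphate, stayed between 0.0359 and 0.184 FPKM and was not compared. Partners of these receptors were read from a separate list of 13 adaptor, retromer and related genes: AP1S2, an adaptor subunit, was the only one past the mark, with log2 ratios of 2.16 and 1.76, and the list's medians were 0.01 and −0.16.

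**Figure D2:**
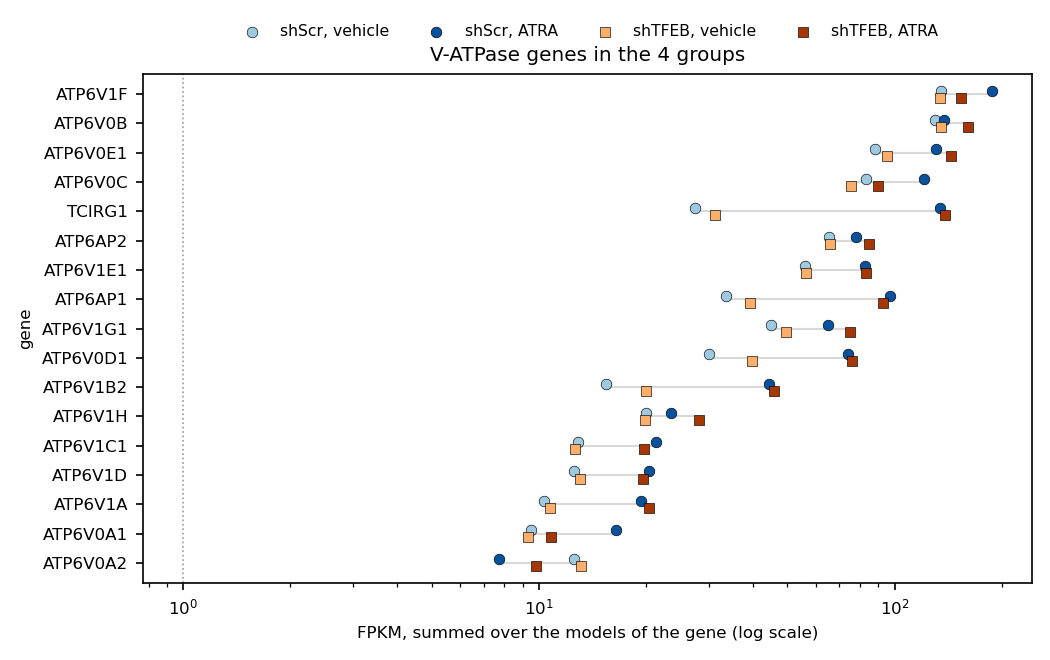
FPKM of the 17 V-ATPase genes on a log axis, 1 deposited value per group, with the same symbols as the plot of membrane genes and the dotted line at 1 FPKM. In each line 16 of the 17 genes are higher under ATRA, and ATP6V0A2 is lower.

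Most V-ATPase genes were higher with ATRA by less than the mark, and TCIRG1 had the largest ratio. In each line 16 of the 17 genes had a log2 ratio above 0 (42.2% of all genes in shScr and 41.9% in shTFEB cells), and 13 of 17 in shScr and 14 of 17 in shTFEB cells did not reach the mark. The 8 genes of the V1 sector summed to 307, 464, 316 and 446 FPKM, which is 1.51-fold and 1.41-fold more. The 7 genes of the V0 sector summed to 381 and 621 FPKM and to 399 and 629 FPKM, 1.63-fold and 1.58-fold more.

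Within V1, ATP6V1B2, the nucleotide-binding subunit of most cells, was the only gene past the mark. It stood at 15.4 FPKM with vehicle and 44.4 with ATRA under the scrambled hairpin, and at 19.98 with vehicle and 45.9 with ATRA under the TFEB hairpin, log2 ratios of 1.47 and 1.16. The catalytic subunit gene ATP6V1A (chromosome 3, 113465866 to 113530905), whose protein alternates with the B subunit around the ring, had 10.3, 19.4, 10.7 and 20.4 FPKM, log2 ratios of 0.85 and 0.87. The share of ATP6V1A in the summed level of ATP6V1A and ATP6V1B2 was therefore 40.1% with vehicle and 30.4% with ATRA in shScr cells, and 35.0% and 30.8% in shTFEB cells. The other 6 genes of V1 had log2 ratios from 0.22 to 0.69 in shScr and from 0.20 to 0.61 in shTFEB cells. ATP6V1F (chromosome 7, 128502857 to 128505903), a small subunit of the central rotor, was the highest at 135, 187, 134 and 154 FPKM. The highest V1 gene was 13.0 times the lowest in shScr vehicle and 7.87 times in shTFEB ATRA, so the mRNAs of subunits that share 1 complex differ widely per length. ATP6V1H, the regulatory subunit that holds the free V1 sector inactive, had 19.999, 23.5, 19.9 and 28.2 FPKM, the smallest shScr response of the sector.

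In V0 the largest change was in TCIRG1 (chromosome 11, 67806462 to 67818366), the a3 subunit that carries the pump to secretory lysosomes and that osteoclasts need for bone resorption. It stood at 27.5 FPKM (bounds 25.97 to 29.2) with vehicle and 134 (132 to 139) with ATRA under the scrambled hairpin, and at 31.3 (29.7 to 33.0) with vehicle and 138 (135 to 144) with ATRA under the TFEB hairpin. Both ATRA values are above both vehicle values, the bounds of the ATRA groups overlap, and the rise was 4.86-fold and 4.42-fold. Neither of its paralogs passed the mark, and they differed in direction. ATP6V0A1 (chromosome 17, 40610862 to 40674597) stood at 9.52 FPKM with vehicle and 16.5 with ATRA under the scrambled hairpin, and at 9.34 with vehicle and 10.8 with ATRA under the TFEB hairpin, log2 ratios of 0.74 and 0.19. ATP6V0A2 (chromosome 12, 124196865 to 124246301), the form of the Golgi and endosomes, had 12.5, 7.71, 13.1 and 9.80 FPKM, log2 ratios of −0.64 and −0.39. TCIRG1 accordingly went from 55.5% to 84.7% of the summed a-subunit FPKM in shScr cells and from 58.2% to 87.0% in shTFEB cells, while ATP6V0A2 went from 25.3% to 4.88% and from 24.5% to 6.18%. ATP6V0A4, the kidney form read from a separate list, was listed at 0.

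**Figure D3:**
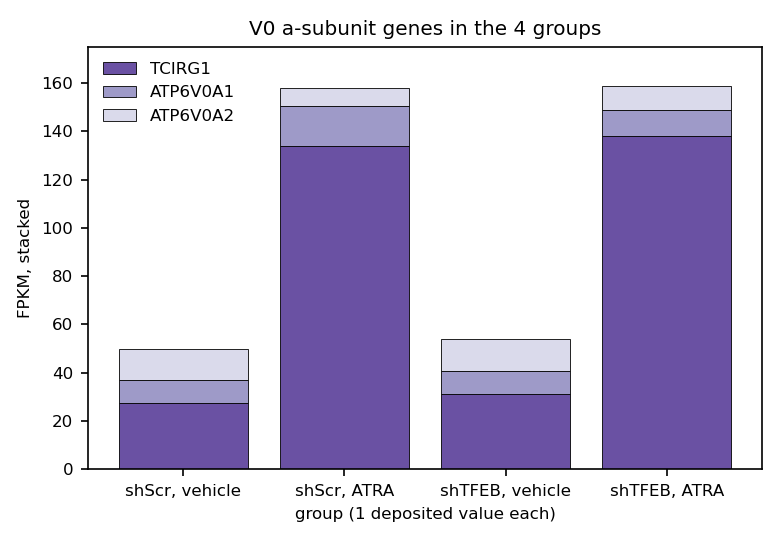
Stacked bars of the FPKM of the 3 a-subunit genes in each group, 1 deposited value per gene and group and no error drawn. The summed height goes from 49.6 to 158 FPKM under the scrambled and from 53.7 to 159 under the TFEB hairpin, and TCIRG1 makes up 84.7% and 87.0% of the bars under ATRA.

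TCIRG1 has 2 models, a long and a short one. The short model held 51.3%, 50.9%, 54.9% and 51.8% of the FPKM, so both models rose together. ATP6V0A1 was likewise spread over 2 models above 0, the leading one with 67.5%, 70.5%, 53.6% and 58.2%. The proteolipid gene ATP6V0C (chromosome 16, 2563727 to 2570224) had 83.2, 121, 75.4 and 90.1 FPKM, of which 1 of its 2 models held 44.004%, 67.2%, 52.6% and 50.96%. The gene table names 4 copies of ATP6V0C, 4 of ATP6V0E1, 3 of ATP6V1E1, 7 of ATP6V1G1 and 1 each of LAMP1, M6PR and ATP6V1F under pseudogene symbols. How fragments that match several copies were counted is not given in the sources used here, so the levels of these 7 genes are uncertain to that extent.

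Among the other V0 genes ATP6V0D1 (chromosome 16, 67471917 to 67515089), the d subunit that links V0 to the rotor of V1, went from 30.2 to 74.1 FPKM under the scrambled and from 39.7 to 76.1 under the TFEB hairpin. It rose in shScr cells (log2 ratio 1.27) and stayed just under the mark in shTFEB cells (0.92), where median-of-ratios rescaling puts it at 1.06. The difference of its responses, −0.35, was not tested. ATP6V0B, a proteolipid subunit, held 130, 137, 135 and 160 FPKM and ATP6V0E1 held 87.8, 131, 95.1 and 144 FPKM. Of the accessory proteins, ATP6AP1 (chromosome X, 153656978 to 153664862), which takes part in assembling V0, rose from 33.5 to 97.4 FPKM and from 39.1 to 92.9 FPKM. ATP6AP2, the prorenin receptor, stood at 65.4, 77.7, 65.7 and 84.5 FPKM and did not pass the mark.

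Other genes of the pump and of the membrane were read from lists that hold no member. Among V-ATPase subunit genes outside the members, 2 of 8 with a model were expressed highly enough to compare: RNASEK, a V0-associated subunit, rose from 51.9 to 139 FPKM under the scrambled and from 50.4 to 119 under the TFEB hairpin, and ATP6V0E2 did not pass the mark. The tissue-restricted forms ATP6V1C2, ATP6V1G2 and ATP6V1G3 were listed at 0 in every group, and ATP6V0D2, the osteoclast d subunit, stayed at or under 0.141 FPKM. Assembly and regulator genes rose in 1 of 9 cases in each line, DMXL2 in shScr (1.39) and NCOA7 in shTFEB cells (2.38). NCOA7, a regulator that binds the pump, was also the only one of the 9 past the mark between the hairpins under ATRA, where 9.55 FPKM stood against 21.8 FPKM with the TFEB hairpin. Of 31 compared other lysosomal membrane genes, 9 rose and 2 fell in shScr cells and 7 rose and 2 fell in shTFEB cells, with medians of 0.40 and 0.49. DRAM1, a membrane protein linked to autophagy, had log2 ratios of 3.82 and 3.12, SLC15A3, a peptide and histidine transporter, 2.71 and 2.29, SLC2A6 2.28 and 1.24, and LAPTM4B, a relative of LAPTM4A, −1.80 and −1.31. None of the 5 Ragulator genes, which tether mTORC1 to the lysosome, passed the mark (medians 0.44 and 0.59).

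**Figure D4:**
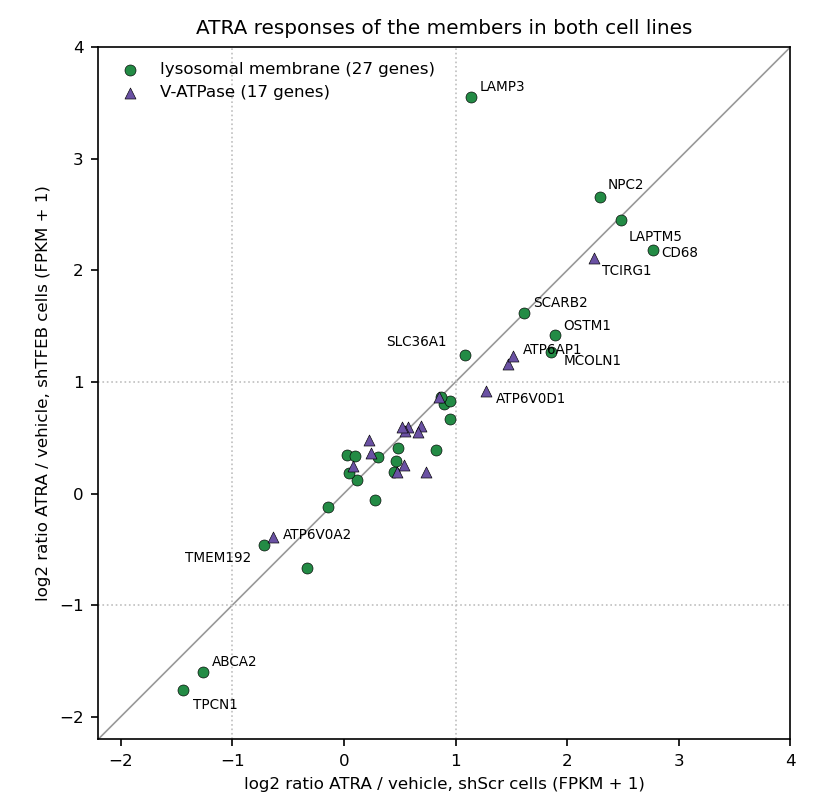
Log2 ratio of ATRA to vehicle, after adding 1 FPKM, in shScr cells (x axis) and in shTFEB cells (y axis) for the 44 compared members (circles, membrane and sorting genes; triangles, V-ATPase genes). The dotted lines mark 2-fold and the grey line equal responses; LAMP3 lies at 1.14 and 3.55, and 11 members are past the mark upward and 2 downward in both lines.

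Set side by side, the responses of the lines shared most of their members. Past the mark upward in both lines were 11 members (LAMP3, CD68, SCARB2, LAPTM5, NPC2, MCOLN1, OSTM1, SLC36A1, TCIRG1, ATP6V1B2 and ATP6AP1), downward in both were TPCN1 and ABCA2, and ATP6V0D1 passed it in shScr cells alone. The sign of the response was the same in 43 of 44 members, GNPTG being the other. The share of all genes that agree between the lines was not computed, so this agreement is not shown to be particular to the members. The difference of the log2 responses (shTFEB minus shScr) was below 0 for 24 members and above 0 for 20, and below 0 for 4855 of all 11052 genes. The 24 include TPCN1 and ABCA2, which fell further in shTFEB cells. The split becomes 32 to 12 after median-of-ratios and 33 to 11 after upper-quartile rescaling, where the all-gene split was not computed. As deposited, the median difference was −0.08 over membrane and sorting genes and −0.08 over V-ATPase genes, against 0.04 over all genes. After median-of-ratios rescaling these medians were −0.11 and −0.11 against 0.01, and after upper-quartile rescaling −0.16 and −0.18 against −0.05. Only LAMP3, which the filter admits through its shTFEB ATRA value, passed the mark in this difference (2.41), where 4.29% of all genes did. The next in size were MCOLN1 and CD68 (both −0.59), ATP6V0A1 (−0.55) and OSTM1 (−0.47). For MCOLN1 the log2 ratio of shTFEB to shScr was 0.38 under vehicle and −0.21 under ATRA, for OSTM1 0.23 and −0.23, for CD68 1.05 and 0.45, and for ATP6V0A1 −0.03 and −0.57. The vehicle and ATRA ends both enter these differences in MCOLN1 and OSTM1, and in ATP6V0A1 the ATRA end does.

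**Figure D5:**
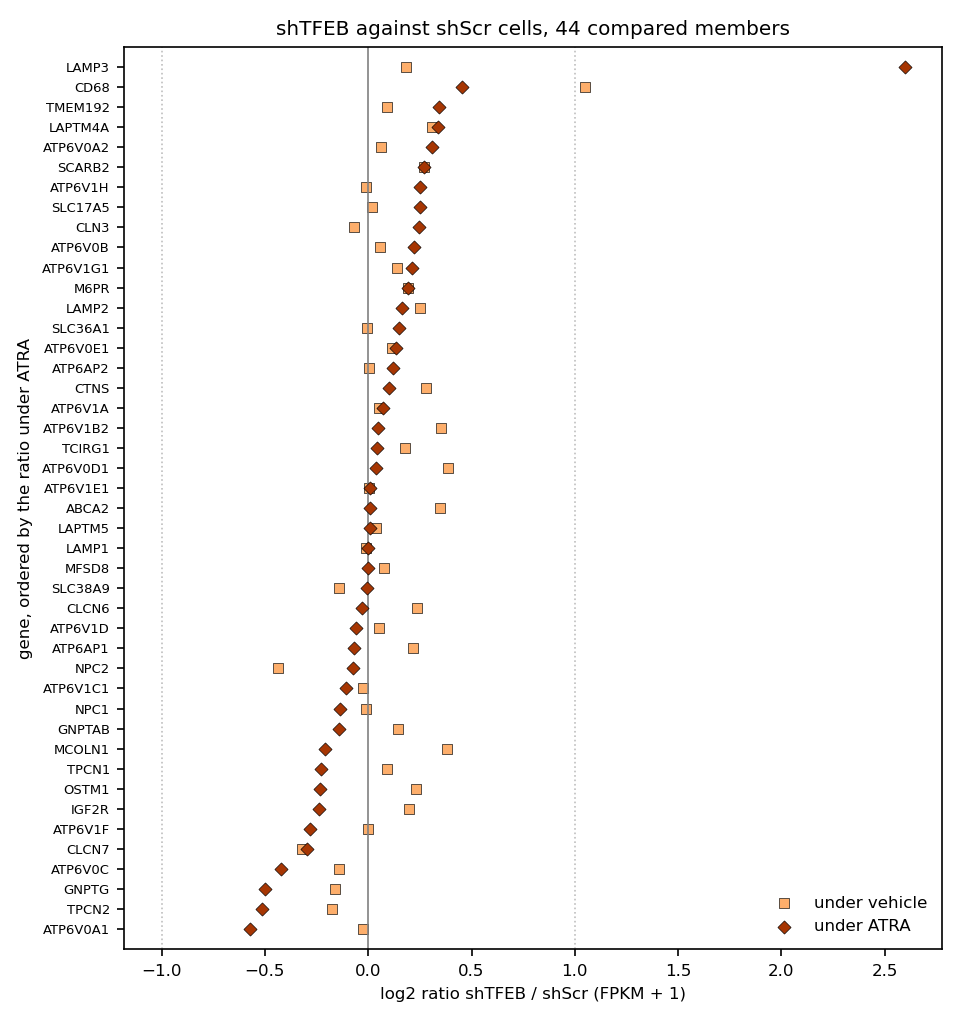
Log2 ratio of shTFEB to shScr cells, after adding 1 FPKM, for the 44 compared members under vehicle (squares) and under ATRA (diamonds), ordered by the value under ATRA, with dotted lines at the 2-fold mark. CD68 under vehicle (1.05) and LAMP3 under ATRA (2.60) are the only points past it.

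Between the hairpins most members stood close together. Under vehicle, CD68 was the only member past the mark (1.85% of all genes were past it), 43 of 44 members lay under 0.5 in size (94.5% of all genes), and the medians were 0.09 and 0.05 for membrane and V-ATPase genes against 0.02 for all genes. Under ATRA, where TFEB itself was lower in shTFEB cells (log2 ratio −1.11), LAMP3 was the only member past the mark, against 4.25% of all genes. The filter admits LAMP3 only through its shTFEB ATRA value. A total of 41 of 44 members lay under 0.5 in size, where 85.1% of all genes did, and the medians were 0.00 and 0.04 against 0.06. The members beyond 0.5 in size were LAMP3, ATP6V0A1 (−0.57; 10.8 against 16.5 FPKM, bounds 9.92 to 11.5 and 15.4 to 17.3) and TPCN2 (−0.52; 3.10 against 4.86 FPKM). All 6 channel and chloride transporter genes had log2 ratios below 0 under ATRA, from −0.52 (TPCN2) to −0.03 (CLCN6), where 40.4% of all genes were below 0, and none reached the mark. Under vehicle 4 of these 6 were above 0, with a median of 0.16. Among the 6, the bounds of the ATRA groups overlapped for MCOLN1 and CLCN6. The share of all genes with bounds apart was not computed without the mark. Bounds were apart even at a ratio as small as that of ATP6V1C1 (−0.11), so bounds apart do not set these genes off. In other role groups, all 5 structural glycoproteins and all 3 further membrane proteins had ratios above 0 under ATRA, where 6508 of all 11052 genes did, and NPC1 and NPC2 had ratios below 0. After either rescaling LAMP1 and LAPTM5 stood below 0, so neither group was wholly above 0 there. For 8 members, among them LAMP1, LAPTM5 and TCIRG1, the ratio under ATRA was so near 0 that rescaling changed its sign. These hairpin ratios share group values with the ATRA ratios above and are not separate evidence.

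Members with and without the CLEAR element were then set side by side as a description. Of the 9 compared members with TCACGTGA, 3 rose with ATRA in shScr cells (MCOLN1, SLC36A1 and ATP6V0D1) and their median log2 ratio was 0.52, where the 28 members with a window and no such match had 7 that rose and a median of 0.51. Under ATRA the shTFEB to shScr log2 ratio had a median of 0.00 in each of these groups, and it ran from −0.50 (GNPTG) to 0.24 (CLN3) among the 9. The difference of the ATRA responses (shTFEB minus shScr) had a median of −0.26 over these 9 and −0.09 over the 28, and of −0.39 over the 4 members with the full form and −0.08 over the 33 without it. With the shortest form, CACGTG, the order was the reverse, at 0.01 over the 12 compared members with it and −0.12 over the 25 without. Over all compared genes with a window, this median was 0.06 with TCACGTGA and 0.05 without. For the 4 members with the full form, shown above, the shTFEB to shScr ratio under ATRA was −0.50 for GNPTG, −0.24 for IGF2R, −0.21 for MCOLN1 and 0.21 for ATP6V1G1. Among all compared genes with a window, the 83 that hold the full form had a median of 0.02 and the 8638 that do not had 0.06 in that ratio, and −0.02 and 0.05 in the difference of the responses. The members that moved most with ATRA, such as CD68, LAPTM5, NPC2 and TCIRG1, held none of the 3 forms, which says only that these letters are not in these windows.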

How the data were processed

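RNA of NB4 cells in 4 groups was sequenced from TruSeq libraries, per the labels' protocols; the shScr ATRA titles also carry the word vehicle, and the group was taken from the description. The authors deposited FPKM values that come, per the submitters' processing notes, from TopHat, Cufflinks and Cuffdiff on hg19; versions, and how the 2 samples of a group were combined, are not given in the sources used here. Lower and upper limits of each FPKM, on the same scale, were also deposited by the authors. Each table lists 65986 models. RefSeq accessions were matched to symbols through a RefSeq gene table of GRCh38.p14, used for names alone (39841 of 41159 matched), and FPKM and limits were summed per symbol with Python 3.11.15 and pandas 2.3.3. All 76 models of the members had the status OK. Coordinates of genes are those of hg19 counted from 1; promoter sequences are RefSeq's, GRCh38.p14.

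Genes with a mean of at least 1 FPKM were compared as log2((FPKM + 1)/(FPKM + 1)) in 5 comparisons: 2 of ATRA against vehicle, 2 of shTFEB against shScr, and 1 of the difference between the responses to ATRA. All members were described; those past the 2-fold mark, those 0.5 or more apart between the hairpins under ATRA, the 3 highest of each sub-group and the field-standard genes LAMP1, LAMP2, MCOLN1, ATP6V0D1 and ATP6V1H were given with all group values, and bounds where they bear on a comparison; GNPTG was added after its values were seen. From other lists, at most 4 genes past the mark were named, with genes listed at 0 or near it. Marker lists for promyelocytes, monocytes, eosinophils and basophils, lymphoid, erythroid and megakaryocytic and non-blood cells were read as well. Members, lists and settings were chosen with earlier results of these data known. The calculation was run on simulated data with planted changes far past the mark and no spread between samples. That run checks the code alone and says nothing of changes near the mark. Results were recomputed with a pseudocount of 0.1 or 5 FPKM, without the filter or with it set to 5 FPKM, after upper-quartile or median-of-ratios rescaling, from only the highest or only the OK models of a gene, and with a requirement that bounds be apart. Ratios without a pseudocount, counts without LAMP3 and CD68, and the interferon list were chosen after seeing the data.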

Additional observations from a re-analysis of the deposited data

Results flagged for a closer look

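GNPTG, the gamma subunit of the mannose 6-phosphate tagging enzyme, was the only compared member whose response to ATRA had opposite signs in the lines, with a log2 ratio of 0.28 in shScr cells and −0.056 in shTFEB cells. With 1 value per group this difference was not tested. After median-of-ratios rescaling the value in shTFEB cells is 0.077, and the FPKM of GNPTG lies above its own deposited bounds in all 4 groups.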

How the results depend on the processing

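No paired analysis was possible because the tables hold 1 value per group, and for the same reason no replicate could be left out. The counts of members past the 2-fold mark, 10 in all over the sub-groups and comparisons, stayed within 1.5 times of the reported count in 90 of 98 recalculations. The exceptions were these. With a pseudocount of 5 FPKM, 6 in place of 10 membrane and sorting genes passed the mark with ATRA in shScr cells, LAMP3 (0.37), MCOLN1 (0.96), SLC36A1 (0.63) and ABCA2 (−0.93) being the ones lost, and 0 in place of 1 passed it between the vehicle groups, CD68 then standing at 0.77; MCOLN1 (0.67) and SLC36A1 (0.73) also missed it in shTFEB cells. With a mean of at least 5 FPKM, 0 in place of 1 passed it between the hairpins under ATRA and 0 in place of 1 in the difference of responses, since LAMP3 has a mean under 5 FPKM. With median-of-ratios rescaling, 5 in place of 3 V-ATPase genes passed it with ATRA in shTFEB cells. Without LAMP3 and CD68 the counts of membrane and sorting genes were 0 between the vehicle groups, 0 between the hairpins under ATRA and 0 in the difference of responses. With the highest model alone ABCA2 stood at −0.99 in shScr cells. No log2 ratio of a named member changed sign while past the mark under these settings. The depth of single samples and the spread between them are unknown, so small differences, such as those between the hairpins, carry no error here.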

Other observations

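Eosinophil and basophil genes were the marker list that differed most often between the hairpins under vehicle: 4 of 9 compared genes passed the 2-fold mark upward with the TFEB hairpin, and 6 of 9 under ATRA. PRG3, among the 6, passed the filter only through the shTFEB ATRA group. RNASE2 and RNASE3 of this list were lower with the TFEB hairpin under vehicle, short of the mark. Lymphoid markers held no gene past the mark between the hairpins, and non-blood markers held none either. Among erythroid and megakaryocytic genes ITGA2B, a platelet integrin gene, was higher in shTFEB cells under ATRA, at 2.75 against 0.521 FPKM. ITGA2B passed the filter only through its shTFEB ATRA value.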
